A study of Mus musculus with 4 samples.

Results

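Sparc, Qpct, Spp1, Fn1, Capg, Ckb, Padi2, Selenom, Rnase4 and Tbxas1 are 10 of the 32285 genes counted in bone marrow of the 5TMM mouse model of multiple myeloma. They were chosen by symbol, from earlier results of these data, for their UMI counts (unique molecular identifiers, each standing for 1 captured RNA molecule) in Csf1r-positive monocytes of mice treated with purinostat mesylate (PM), an inhibitor of class I and IIb histone deacetylases. Differences between PM and vehicle in these genes are therefore given as a description, without p-values. Each of 4 droplet libraries (10x 3' chemistry) held the marrow of 1 mouse after lysis of erythrocytes, 2 from mice given vehicle and 2 from mice given 10 mg/kg PM, collected 24 h after treatment. All 4 mice carried the tumor: luciferase-labelled 5TGM1 myeloma cells had been injected into the vein of C57BL/KawRij mice at 6 weeks of age, so there is no tumor-free marrow to compare with. By the study's methods, treatment came 3 weeks after the model had been established. The labels number the mice 1 and 2 in each group, and nothing in them ties a vehicle mouse to a PM mouse.

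These genes encode proteins of several kinds. Osteopontin (Spp1), fibronectin (Fn1) and SPARC (Sparc, also called osteonectin) are secreted glycoproteins of the extracellular matrix, the first and the last of which are abundant in bone, and integrins are the main receptors of osteopontin and fibronectin. Monocytes arise in the marrow from cycling progenitors that divide under signals through the Csf1 receptor, leave the cell cycle as Ly6c2-positive classical monocytes, and can further become non-classical monocytes, macrophages or osteoclasts. In that lineage secreted enzymes, lipid mediators and matrix proteins are part of how the cells act on their surroundings. Histone deacetylase inhibitors raise acetylation of histones and other proteins and change the transcription of many genes in both directions.

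After removal of cells with few genes or high mitochondrial content, 39743 cells remained, 7826 to 13387 per mouse. The libraries held between 69828595 and 109447030 UMIs. A cell was taken as a Csf1r-positive monocyte if it had at least 1 Csf1r UMI and lay in a cluster named from monocyte markers, with the 10 genes and Csf1r left out of the clustering. This gave 3184 cells (vehicle 974 and 660, PM 1107 and 443). The class lay in 2 clusters. Cluster 6, with all 10 monocyte markers raised, was led by Vcan, Fn1, S100a4 and Ccr2, and cluster 9, with 7 of 10 raised, by Fn1, F13a1, Klf4 and S100a4. Of the Csf1r-positive monocytes 64.9% and 58.3% (vehicle) against 48.7% and 49.9% (PM) lay in cluster 6, the others in cluster 9. Of all cells in the class 90.9% and 91.5% had a Csf1r UMI with vehicle and 83.7% and 83.1% with PM, so the Csf1r criterion removed a larger share of cells with PM; median depth of the cells kept was 10806, 11195, 10867 and 12339 UMIs. Library pairs shared 18 to 41 cell barcodes, at most 0.431% of the smaller library. Cells with at least 5 UMIs of 12 cell cycle genes per 10000 UMIs were called cycling, which held for 385 of 974, 286 of 660, 547 of 1107 and 216 of 443 cells, and 11 to 28 cells per mouse lay between 4 and 6. Between 92.1% and 98.8% of the cells of cluster 9 were cycling, against 2.71% to 7.44% of those of cluster 6.

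In these monocytes each of the 10 genes had a higher CPM (counts scaled to the same total, over the summed cells of a mouse) in both PM mice than in both vehicle mice. Sums per mouse were fitted with edgeR, and calling a gene required an adjusted p (Benjamini-Hochberg) under 0.05 and a log2 fold change beyond 0.5 in either direction. Sparc, Qpct, Spp1, Selenom and Tbxas1, 5 of the 10, were called, against 2.0% of the 11676 genes tested (1.34% called higher), and Fn1, Capg, Ckb, Padi2 and Rnase4 were not. Of all genes tested 26.8% were likewise higher in both PM mice than in both vehicle mice. The median log2 fold change of the 10 genes was 1.00 and that of all genes tested was -0.0025. Since this contrast chose the genes, the counts describe them and support nothing further. Without PM replicate 1 only Sparc, Qpct and Selenom were called, 3 genes, and without vehicle replicate 2 there were 9.

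**Figure D1:**
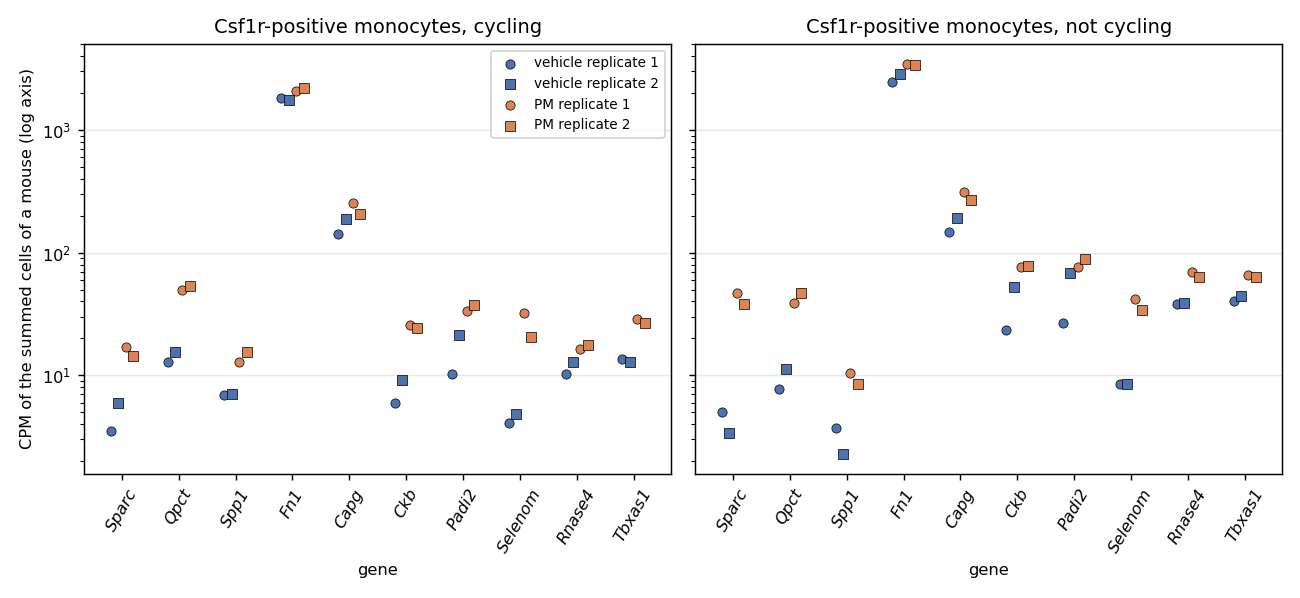
CPM of the 10 genes (log axis) in the summed cycling (left) and not cycling (right) Csf1r-positive monocytes of each mouse, with circles for replicate 1 and squares for replicate 2 of vehicle (blue) and PM (orange). In both panels every orange point lies above both blue points of the same gene, by the widest margin for Sparc in the not cycling cells (3.40 and 4.98 against 38.2 and 47.0 CPM). The share of all genes so placed was not counted for either panel.

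Among the matrix proteins, Sparc (GRCm38 chromosome 11, 55394500 to 55423183, minus strand), a collagen-binding matricellular protein, gave 58 and 54 UMIs with vehicle and 403 and 144 UMIs with PM. Scaled, this was 4.09 and 5.13 against 25.7 and 21.6, a mean of 4.61 ± 0.73 CPM (SD, n = 2) and of 23.6 ± 2.93 CPM (SD, n = 2). The log2 fold change was 2.35 ± 0.20 (SE). The 4 mice thus fell in a pair of groups that did not overlap. Spp1 (chromosome 5, 104435118 to 104441050, plus strand), which anchors cells to mineralized matrix and acts as a cytokine, had 80 and 57 UMIs with vehicle and 191 and 90 with PM. This corresponded to 5.64 and 5.41 CPM against 12.2 and 13.5 CPM, a log2 fold change of 1.17 ± 0.20. The PM mice lay above the vehicle mice without overlap. Fn1 (chromosome 1, 71585520 to 71653200, minus strand), the fibril-forming ligand of integrins, was read at 2066 and 2134 CPM with vehicle and 2485 and 2561 CPM with PM. Its log2 fold change of 0.23 ± 0.17 was the smallest of the 10, and was -0.125 when every Csf1r-positive cell of any cluster was summed. Exons of Apol7d lie opposite Fn1; whether the counting used strand is not given in the sources used here.

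Of the enzymes that modify secreted or cellular proteins, Qpct (chromosome 17, 79051906 to 79090378, plus strand) encodes glutaminyl cyclase, which turns an N-terminal glutamine into pyroglutamate, for example in Ccl2 and related chemokines. It had 155 and 149 UMIs with vehicle and 733 and 343 UMIs with PM, or 10.9 and 14.1 CPM against 46.7 and 51.3 CPM. The log2 fold change was 1.94 ± 0.15, and the lowest PM mouse stood well above the highest vehicle mouse. Padi2 (chromosome 4, 140906344 to 140952586, plus strand), a peptidylarginine deiminase that converts arginine to citrulline, was at 16.6 and 37.0 CPM with vehicle and 46.2 and 53.0 CPM with PM. Vehicle mice differed from each other by more than the second of them differed from the PM mice, and the log2 fold change of 0.86 ± 0.50 was not called. Exons of Gm13031 lie opposite Padi2.

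Selenom (chromosome 11, 3514684 to 3517351, plus strand) encodes selenoprotein M, a thioredoxin-like protein of the endoplasmic reticulum. It gave 82 and 64 UMIs with vehicle and 546 and 164 with PM, that is 5.78 and 6.08 CPM against 34.8 and 24.5 CPM, a log2 fold change of 2.32 ± 0.22. The vehicle mice were close together and the PM mice were both higher, PM replicate 1 more so. Tbxas1 (chromosome 6, 38875404 to 39084585, plus strand), thromboxane A synthase, had 336 and 245 UMIs with vehicle and 621 and 253 with PM. Its levels of 23.7 and 23.3 CPM against 39.6 and 37.9 CPM gave a log2 fold change of 0.69 ± 0.13. Both groups were tight, and the call was lost with DESeq2, without PM replicate 1 and with every Csf1r-positive cell.

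Capg (chromosome 6, 72544391 to 72562983, plus strand), an actin filament capping protein of macrophages, was at 143 and 189 CPM with vehicle and 272 and 225 CPM with PM. Ckb (chromosome 12, 111669361 to 111672338, minus strand), the brain-type creatine kinase that buffers ATP, was at 12.6 and 23.5 CPM with vehicle and 40.5 and 40.3 CPM with PM. Rnase4 (chromosome 14, 51091077 to 51106151, plus strand), a secreted ribonuclease, was at 20.8 and 21.7 CPM with vehicle and 31.9 and 31.4 CPM with PM. Log2 fold changes of these 3 genes were 0.55 ± 0.17, 1.15 ± 0.32 and 0.55 ± 0.13, and none was called, although no PM mouse overlapped a vehicle mouse. Rnase4 shares exons on the same strand with Ang, which was counted with 69 and 56 UMIs with vehicle and 129 and 57 UMIs with PM, so that reads of the shared part cannot be assigned to one of them with certainty.

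Promoter sequences were taken from RefSeq (GRCm38.p6, 250 bases before to 50 after a start). They were given for 8 of the 10 genes, with 10 starts in all; Qpct and Fn1 had no entry. Shown here are those of the called genes with an entry (for Spp1 the first of its starts), in lower case from 5′ to 3′ on the strand of the gene. The capitals mark a match, on either strand, to the TATA letters TATAAA, the GC box letters GGGCGG, the ETS core GAGGAA, the AP-1 letters TGANTCA or the E-box CACGTG. The Sparc window is chr11:55420031-55420330 (minus strand), that of Spp1 chr5:104434861-104435160 (plus), that of Selenom chr11:3514434-3514733 (plus) and that of Tbxas1 chr6:38918736-38919035 (plus).
Sparc: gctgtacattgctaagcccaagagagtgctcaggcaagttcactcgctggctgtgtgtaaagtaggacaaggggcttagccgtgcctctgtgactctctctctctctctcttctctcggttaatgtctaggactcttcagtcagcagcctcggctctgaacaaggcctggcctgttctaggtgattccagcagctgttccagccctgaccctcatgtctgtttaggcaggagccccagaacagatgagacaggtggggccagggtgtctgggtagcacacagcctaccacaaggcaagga
Spp1: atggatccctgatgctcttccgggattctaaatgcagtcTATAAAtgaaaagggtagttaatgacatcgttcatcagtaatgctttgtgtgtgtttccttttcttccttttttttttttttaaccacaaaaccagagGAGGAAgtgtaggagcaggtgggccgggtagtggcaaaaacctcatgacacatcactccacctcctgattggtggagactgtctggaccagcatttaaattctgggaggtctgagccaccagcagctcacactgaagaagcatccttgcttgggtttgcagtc
Selenom: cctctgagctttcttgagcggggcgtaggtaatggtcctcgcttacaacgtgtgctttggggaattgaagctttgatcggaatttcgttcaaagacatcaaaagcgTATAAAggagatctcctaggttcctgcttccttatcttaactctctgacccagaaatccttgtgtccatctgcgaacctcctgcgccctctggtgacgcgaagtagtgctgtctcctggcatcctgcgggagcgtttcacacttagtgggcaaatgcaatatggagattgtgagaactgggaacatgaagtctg
Tbxas1: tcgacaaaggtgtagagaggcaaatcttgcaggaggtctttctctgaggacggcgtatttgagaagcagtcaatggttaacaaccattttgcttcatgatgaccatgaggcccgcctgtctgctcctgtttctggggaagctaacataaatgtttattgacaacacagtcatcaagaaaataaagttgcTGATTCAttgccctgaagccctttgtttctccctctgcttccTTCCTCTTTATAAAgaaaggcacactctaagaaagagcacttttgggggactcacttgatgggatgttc
No motif was common to the windows shown. TATAAA was in 4 of the 10 windows (Spp1, Selenom, Tbxas1 and, not shown, Ckb) and in 13.6% of all 32851 promoters in the table. In Ckb and Tbxas1 it stood close before the start, at positions -28 and -11, where in Tbxas1 it overlapped TATAAA on the other strand, and in Spp1 and Selenom it was farther away. GAGGAA was in the windows of Spp1 and Tbxas1 and in 28.3% of all promoters, and in Tbxas1 it adjoined the TATAAA letters. TGANTCA was in the Tbxas1 window and in 7.81% of all. GGGCGG was in the windows of Padi2 and Rnase4 (35.7% of all), and CACGTG in none of the 10 (7.15% of all). The Sparc window held none of the 5 motifs. These matches are a description of the letters only.

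The higher CPM went with more cells in which a gene was seen. A Sparc UMI was found in 5.34% and 6.36% of Csf1r-positive monocytes with vehicle and in 23.1% and 20.5% with PM. After each cell was thinned to 3000 UMIs, which left out 14 to 16 cells per mouse, the shares were 1.23% and 1.35% against 8.49% and 7.10%. For Qpct the shares were 12.1% and 16.2% against 38.3% and 43.8%, and thinned 2.80% and 3.64% against 12.4% and 13.8%. In B cells, which should not express Sparc, 0 to 0.139% of cells had a Sparc UMI at a median depth of 2164 to 2572 UMIs, and in T and NK cells 0 to 0.383%. A Qpct UMI was in 0 to 0.488% of B cells and in 1.81% to 3.33% of T and NK cells. These cells were shallower than monocytes, with a median of 3541 UMIs in T and NK cells, so the shares before thinning are not on 1 scale. Thinned to 1500 UMIs, T and NK cells had a Qpct UMI in 1.28%, 0.773%, 0.894% and 1.63% of cells (vehicle 1, vehicle 2, PM 1, PM 2), a lower depth than the 3000 UMIs used for monocytes. Of the 10 genes a vehicle monocyte had a median of 3 and a PM monocyte a median of 4 with at least 1 UMI, at similar depth.

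Markers of other cells were counted in the same sums. Levels of 8 progenitor markers added up to 1548 and 1580 CPM in the vehicle and 2905 and 2079 CPM in the PM monocytes, with 4 of the 8 higher in both PM mice and 1 lower. Those of 7 erythroid markers added up to 24.8 and 135 CPM with vehicle and 512 and 446 CPM with PM (3 of 7 higher in both PM mice, none lower), and those of 8 neutrophil markers to 19600 and 15550 against 29510 and 17590 CPM (2 of 8 higher, none lower). Macrophage markers, 9 in number, summed to 101 and 86.0 against 136 and 129 CPM (2 higher, 1 lower). T and NK cell markers went from 13.5 and 18.6 to 56.0 and 34.4 CPM (5 of 8 higher, none lower), B cell markers from 29.8 and 53.5 to 71.9 and 57.3 CPM (4 of 8 higher, none lower), and eosinophil and basophil markers from 3.74 and 3.70 to 8.48 and 5.54 CPM (4 of 8 higher, none lower). Dendritic cell markers were at 616 and 538 against 706 and 687 CPM (3 of 9 higher, 2 lower). Of the 10 monocyte markers themselves 2 were higher and 5 lower in both PM mice, at sums of 8307 and 7925 against 8805 and 10000 CPM. The part of these in the differences was not tested. The 6 markers of CAR cells (Cxcl12-abundant reticular stromal cells) summed to 1.76 and 4.46 CPM with vehicle and 2.61 and 4.04 CPM with PM. Of these 2 were higher in both PM mice and 1 was lower or equal. Their part in the differences was not tested. The 6 osteoclast markers summed to 136.4 and 74.25 CPM with vehicle and 190 and 126.5 CPM with PM. Of these 2 were higher in both PM mice and 3 lower or equal, among them Dcstamp at 0 in all 4 sums. The 5 endothelial markers summed to 2.61 and 1.42 against 5.48 and 2.99 CPM (1 higher, 1 lower or equal), with Esam at 0 in all 4 sums. The part of both lists was not tested. With called doublets left out, which had made up 9.96%, 6.52%, 17.0% and 7.22% of the cells, the same 5 of the 10 genes were called.

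Cycling and not cycling cells were compared within each mouse. This is another contrast than that of PM with vehicle, which chose the genes, but it uses UMIs of the same cells. Its counts and p-values are therefore given as a description too. Most of the 10 genes were lower in cycling monocytes: with the mouse as a block, 7 were called lower and 1 higher in cycling cells, against 22.1% of the 10639 genes tested called lower and 43.5% called in either direction. A large part of all genes thus differed between the states. Cycling cells were also deeper, with medians of 18301 to 22844 UMIs against 7604 to 9357, and the part of depth in these differences was not tested. Markers of other cells moved with the state as well. In cycling cells (vehicle 1, vehicle 2, PM 1, PM 2) the 9 dendritic cell markers summed to 49.6, 57.2, 226 and 204 CPM and in not cycling cells to 1531, 1493, 1870 and 1827 CPM. The 9 macrophage markers summed to 47.8, 47.8, 83.2 and 77.1 CPM in cycling and 186, 162, 264 and 250.4 CPM in not cycling cells, and the 8 progenitor markers to 2358, 2286, 3926 and 2801 CPM in cycling and 238, 175.5, 422 and 373 CPM in not cycling cells. Their part in the differences was not tested.

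Rnase4 was read at 10.3, 12.9, 16.5 and 17.7 CPM in cycling cells (vehicle 1, vehicle 2, PM 1, PM 2) and at 37.8, 39.1, 69.3 and 63.9 CPM in not cycling cells. The log2 difference of cycling minus not cycling was -1.91 ± 0.11 (adjusted p = 2.4e-10 in edgeR), and all 4 mice showed it. Ckb, at 5.93, 9.14, 25.8 and 24.3 CPM in cycling and 23.3, 52.2, 76.3 and 77.9 CPM in not cycling cells, differed as much (-1.89 ± 0.13, adjusted p = 6.6e-09 in edgeR). Tbxas1 (-1.44 ± 0.11, adjusted p = 5.4e-09) and Padi2 (-1.39 ± 0.09, adjusted p = 1.6e-09) followed, again lower in cycling cells of 4 of 4 mice.

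The matrix genes divided. Fn1 was lower in cycling cells of all 4 mice (1836, 1758, 2076 and 2203 CPM against 2438, 2881, 3479 and 3406 CPM), by a log2 difference of -0.65 ± 0.05 (adjusted p = 2.1e-08 in edgeR). Spp1 went the other way, with 6.85, 6.99, 12.9 and 15.6 CPM in cycling and 3.69, 2.27, 10.50 and 8.55 CPM in not cycling cells. Its difference was 0.72 ± 0.21 (adjusted p = 0.0073 in edgeR), higher in cycling cells of 4 of 4 mice, although not called when cycling was set at 10 UMIs per 10000 or when every Csf1r-positive cell was summed, where it was 2.7e-05.

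Sparc had a common direction in the PM mice but not in the vehicle mice. In the vehicle mice it was at 3.54 and 6.0 CPM in cycling and 4.98 and 3.40 CPM in not cycling cells. In the PM mice it was at 16.9 and 14.5 CPM in cycling and 47.0 and 38.2 CPM in not cycling cells. The difference over all mice, -1.07 ± 0.34 (adjusted p = 0.036 in edgeR), held in 3 of 4 mice, and the call was lost without any one of vehicle replicate 1, PM replicate 1 and PM replicate 2, with DESeq2, with all cells of the monocyte class and with cycling set at 2 UMIs per 10000, so that it was called in 10 of 16 settings. The large falls were in the PM mice, whose counts took part in choosing Sparc, so this adjusted p is no support. Whether the step between the states differed between vehicle and PM was not tested. Selenom was lower in cycling cells of all 4 mice (-0.67 ± 0.14, adjusted p = 5.2e-04 in edgeR). Qpct, 0.35 ± 0.11 and higher in cycling cells of 4 of 4 mice, and Capg, -0.21 ± 0.07 and lower in 4 of 4, had adjusted p-values of 0.014 and 0.015 in edgeR but differences under 0.5, and were not called.

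**Figure D2:**
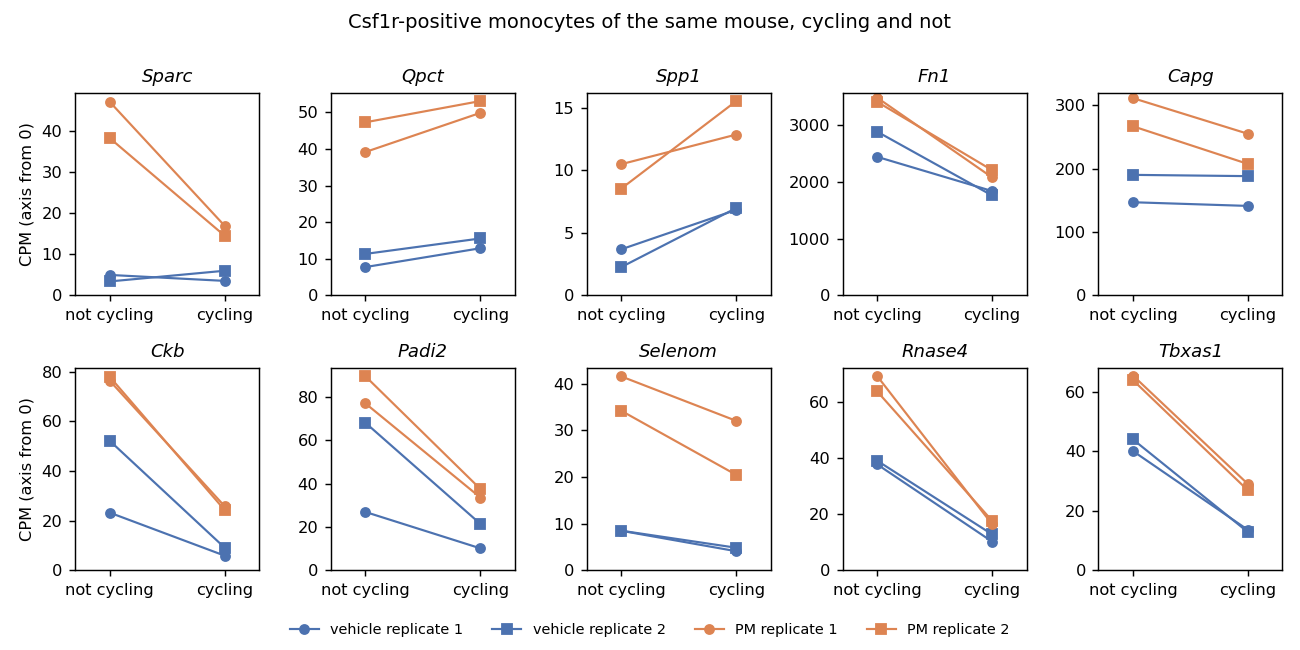
CPM of each gene (linear axis from 0) in the not cycling and the cycling Csf1r-positive monocytes of the same mouse, joined by a line per mouse, with circles for replicate 1 and squares for replicate 2 of vehicle (blue) and PM (orange). The lines fall from not cycling to cycling cells in all 4 mice for Fn1, Ckb, Padi2, Selenom, Rnase4 and Tbxas1, slightly for Capg, and rise for Qpct and Spp1, while for Sparc only the 2 PM lines fall steeply.

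PM and vehicle were then set side by side in each state. In cycling cells Sparc, Qpct, Spp1, Ckb, Selenom and Tbxas1 were called (6 of 10, against 1.71% of 11050 genes called and 1.42% called higher), and in not cycling cells Sparc, Qpct, Capg, Selenom, Rnase4 and Tbxas1 (6 of 10, against 2.66% of 10263 genes called and 1.80% called higher). All were higher with PM. In the cycling sums 4 of the 9 dendritic cell markers were higher in both PM mice and 1 was lower. In the not cycling sums 2 were higher and 2 were lower or equal. The part of these markers in the values of Ckb and the other genes was not tested. The log2 fold change of Sparc was 1.73 ± 0.27 in cycling and 3.31 ± 0.26 in not cycling cells, where 27 and 12 UMIs stood against 215 and 76. The values of Qpct were 1.83 ± 0.16 and 2.19 ± 0.22, those of Selenom 2.57 ± 0.27 and 2.17 ± 0.22, and those of Spp1 0.99 ± 0.22 and 1.65 ± 0.41, the last from 8 to 48 UMIs per mouse and not called. Single mice decided many of these calls. Leaving out PM replicate 1 gave 3 in cycling and 0 in not cycling cells, where edgeR called 2 of all genes (at an unadjusted p under 0.05, 525 genes were higher and 518 lower) and DESeq2 was not run without that mouse, and leaving out PM replicate 2 gave 5 and 3. In the same not cycling sums the log2 fold changes without PM replicate 1 kept the sign of the full fit for the 10 genes. PM replicate 2 was itself above both vehicle mice in CPM for each of them. Since the contrast of PM with vehicle chose the genes, the kept signs support nothing further.

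The not cycling cells were not the same mixture in each mouse. Clustered again without the 10 genes, Csf1r and every gene called between PM and vehicle, they fell into 9 sub-clusters that differed between single mice as well as between groups. Sub-clusters 2 and 4, led by Saa3, held 42.1% and 33.1% of the cells of vehicle replicate 1 but 10.96% and 3.48% of those of vehicle replicate 2. Sub-cluster 3, led by Atf3 and Tppp3, held 46.3% of vehicle replicate 2, and sub-cluster 1, led by hemoglobin and interferon genes such as Ifit1 and Irf7, held 46.1% and 22.0% of the PM mice. Sub-clusters 5, 7 and 8, led by neutrophil, B and T cell genes, consisted of called doublets for 80.9%, 83.3% and 93.3% of their cells.

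Sub-cluster 0, led by Itga1, Lgals1 and S100a10, had 32, 94, 191 and 83 cells of the 4 mice. These were 5.43% and 25.1% of the not cycling cells with vehicle and 34.1% and 36.6% with PM. Whether its cells were alike in the groups was not tested. They are part of the cells in which the genes were chosen, so their values are a description. In this sub-cluster each of the 10 genes was higher in both PM mice than in both vehicle mice. The share of all genes so placed was not counted here, and several genes had few UMIs with vehicle. Sparc had 4 and 7 UMIs with vehicle and 105 and 40 with PM (11.4 and 6.66 against 65.4 and 46.8 CPM). Qpct was at 17.1 and 17.1 CPM against 66.7 and 59.6 CPM, and Selenom at 5.69 and 4.76 CPM (2 and 5 UMIs) against 48.6 and 35.1 CPM. Tbxas1, at 48.3 and 58.1 against 61.7 and 72.5 CPM, was closer between the groups. The choice of this sub-cluster was made after its cells had been counted.

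Sub-cluster 6 was led by Cd300e, Cd36 and Ace, genes of non-classical monocytes, and had 43, 29, 12 and 27 cells. No Sparc UMI was found in these 111 cells, which allows a share of up to 2.70% of cells with a UMI by counting error alone, at a median depth of 3364 UMIs. Fn1, at 27.0, 237, 28.4 and 23.3 CPM, was far below its level in the other monocytes. Ckb was at 64.8, 63.3, 56.8 and 105 CPM and Rnase4 at 43.2, 47.5, 85.3 and 69.8 CPM, each from at most 12 UMIs per mouse. Of the 10 genes Capg and Rnase4 were higher in both PM mice than in both vehicle mice, on at most 8 UMIs per mouse. The share of all genes so placed was not counted in this sub-cluster.

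**Figure D3:**
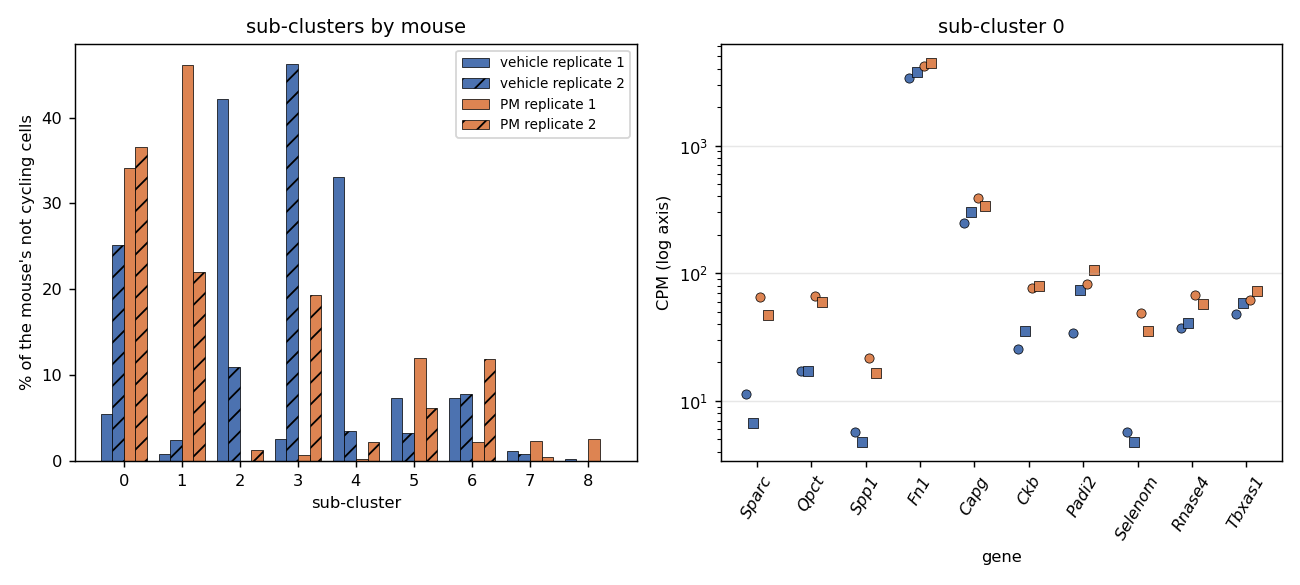
Left, share of each mouse's not cycling Csf1r-positive monocytes in 9 sub-clusters (bars from 0, vehicle blue, PM orange, hatched for replicate 2). Right, CPM of the 10 genes (log axis) per mouse in sub-cluster 0, with circles for replicate 1 and squares for replicate 2, where every PM point lies above both vehicle points of its gene. The share of all genes so placed in sub-cluster 0 was not counted.

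In the vehicle mice the 10 genes had different places among 12 named cell types. Cells of clusters left unnamed, 22.1% and 20.1% of the 2 vehicle mice, are not in these types. Fn1 was highest in monocytes (2066 and 2134 CPM), followed by dendritic cells (121 and 180 CPM) and the cluster of eosinophils and basophils (57.1 and 234 CPM), which overlapped each other. Qpct was highest in monocytes by its mean (10.9 and 14.1 CPM), which CAR cells overlapped with 0 and 17.0 CPM on 0 and 2 UMIs, and T and NK cells came below with 7.15 and 4.99 CPM. Capg in monocytes (143 and 189 CPM) was not separated from neutrophils (144 and 151 CPM), macrophages (141 and 114 CPM) or CAR cells (148 and 42.4 CPM).

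The other genes were higher elsewhere. Sparc was at 685 and 1121 CPM in CAR cells, far above monocytes (4.09 and 5.13 CPM), and 1 and 0 UMIs were found in macrophages. Spp1 in monocytes, at 5.64 and 5.41 CPM, was below eosinophils and basophils (51.8 and 21.8 CPM), T and NK cells (8.04 and 9.15 CPM), dendritic cells (5.97 and 9.27 CPM) and neutrophils (6.18 and 7.84 CPM). Dendritic cells overlapped both T and NK cells and neutrophils, which did not overlap each other, and CAR cells ranged from 0 to 178 CPM. Rnase4 was highest in CAR cells (148 and 170 CPM), then in macrophages (56.6 and 65.6 CPM), then in monocytes (20.8 and 21.7 CPM), with no overlap between these.

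Tbxas1, whose product makes the platelet agonist thromboxane A2, was highest in megakaryocytes and platelets (165 and 185 CPM), then in macrophages (90.5 and 85.3 CPM) and then in monocytes (23.7 and 23.3 CPM), again without overlap. Ckb was highest in macrophages (274 and 217 CPM), followed by dendritic cells (87.6 and 70.9 CPM), with monocytes (12.6 and 23.5 CPM) overlapping the megakaryocyte cluster. Padi2 was highest in eosinophils and basophils (243 and 296 CPM), then in T and NK cells (113 and 84.0 CPM) and dendritic cells (70.3 and 84.8 CPM), the last 2 overlapping, and stood at 16.6 and 37.0 CPM in monocytes. Selenom was at 58.4 and 71.8 CPM in plasma cells and at 5.78 and 6.08 CPM in monocytes. Megakaryocytes (18.4 and 233 CPM) and CAR cells (37.0 and 127 CPM) overlapped plasma cells in Selenom.

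**Figure D4:**
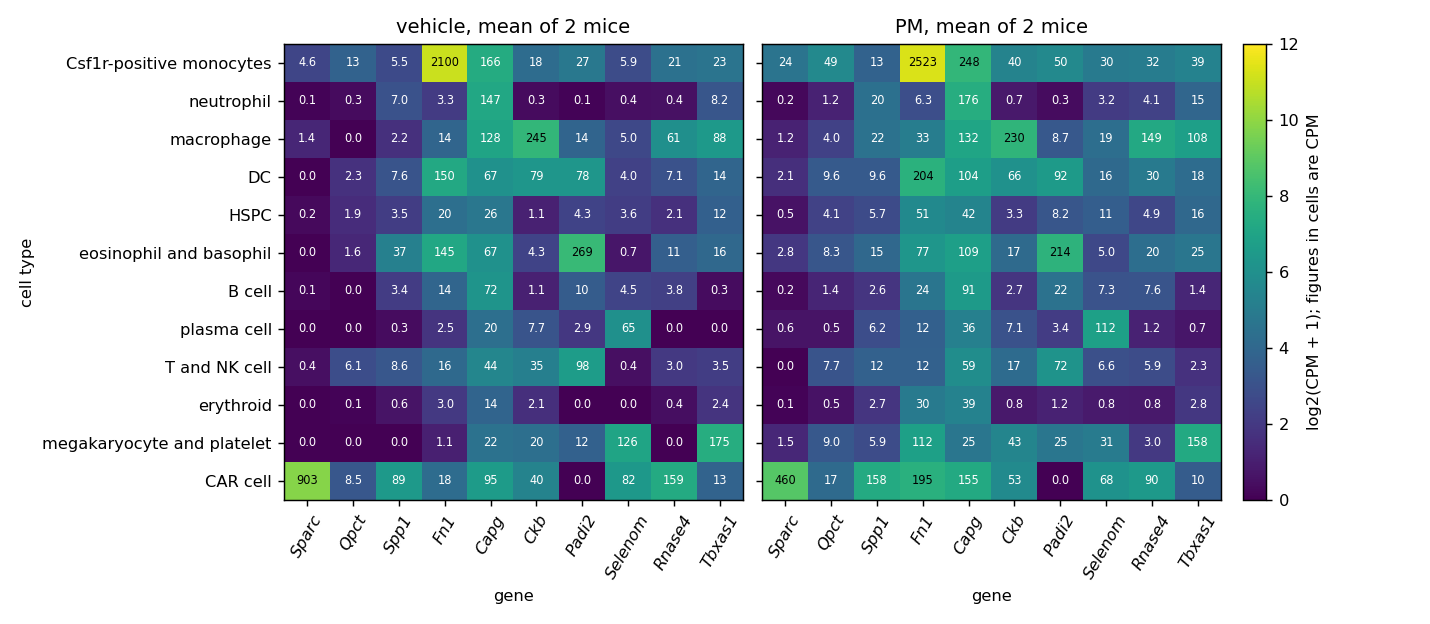
Mean CPM of 2 mice for each gene (columns) in Csf1r-positive monocytes and 11 other cell types (rows), in vehicle (left) and PM (right) mice, colored by log2(CPM + 1) with the mean CPM written in each cell. Fn1 is brightest in monocytes (2100 and 2523 CPM) and Sparc in CAR cells (903 and 460 CPM) in both panels.

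Genes with a like pattern were looked up over 24 profiles, the 12 cell types of the 2 vehicle mice, by Pearson's r of log2(CPM + 1) among 11039 genes that reached 20 CPM in a cell type. Profiles of a mouse share a library, and r is a description here. Sparc was followed by Pcdh18 (r = 0.97), Abca8a and Igfbp3. For Fn1 these were Ms4a8a (0.89), Adora2b and Mcub, for Capg Ap1s2 (0.93), Rhbdf2 and Pirb, and for Qpct Stxbp6 (0.82), Grb14 and Hgsnat. Rnase4 was most like Kctd12b (0.91), Cd302 and Selenop, and Tbxas1 most like Fabp5 (0.85) and Rsu1. Spp1 (E230001N04Rik, 0.88, Stam2 and 2310047D07Rik), Selenom (Uaca, 0.88, Maged2 and Cdc42bpb), Padi2 (Zfp120, 0.88, Gpr183 and Lat2) and Ckb (Frmd4b, 0.86, Serinc1 and Cadm1) had other companions. No gene was among the 3 nearest of more than 1 member.

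Outside the monocytes, the 10 genes and 11 cell types formed 110 pairs, of which 67 passed the filter on low counts. Pairs that passed only through the PM mice had to differ, so no count over them is read as support. There were 8 called pairs, all higher with PM, against 1.51% of the tested pairs over all genes, and 5 of them were in neutrophils. There 6.75% of the 11681 genes tested were called, and 5.83% were called higher. The count of called pairs moved both ways when a mouse was left out, in fits that leave 1 mouse in a group. The share of all tested pairs called in those fits was not counted.

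Neutrophils here are the cells of clusters named so. Cells of the unnamed clusters 3, 4 and 13 (2660, 2629 and 1119 cells) are not among them. Cstdc4 and Stfa2l1 were among the leading genes of clusters 3 and 4, and Ptgs2 and Il1b led cluster 13. Whether these were neutrophils was not tested. In the named neutrophils Rnase4 was counted with 24 and 6 UMIs with vehicle and 145 and 103 with PM, a log2 fold change of 3.03 ± 0.35 at 0.637 and 0.244 against 4.27 and 3.96 CPM. Selenom, with 14 and 11 against 137 and 64 UMIs, differed by 2.93 ± 0.38. Both were at a small part of their monocyte level in each group. Spp1 was higher in neutrophils than in monocytes of the same PM mice, with 18.3 and 22.6 against 12.2 and 13.5 CPM. It gave 233 and 193 UMIs with vehicle and 620 and 589 with PM in neutrophils, a log2 fold change of 1.46 ± 0.15. Tbxas1 (7.30 and 9.14 against 13.5 and 16 CPM, 0.76 ± 0.15) and Qpct (13 and 6 against 43 and 32 UMIs, 1.95 ± 0.41) were also called; the call of Qpct was lost with DESeq2 and without vehicle replicate 1, vehicle replicate 2 or PM replicate 1, and that of Tbxas1 without vehicle replicate 1. Sparc was seen with 1, 4, 5 and 6 UMIs in neutrophils and was not tested. The 10 monocyte markers summed to 1286 and 1159 CPM in neutrophils of vehicle mice and 1531 and 1508 CPM in those of PM mice, 5 of 10 being higher in both PM mice and none lower. Macrophage markers went from 167 and 174 to 189 and 190 CPM (7 of 9 higher, 1 lower). Higher in both PM mice, with none lower, were also 7 of 8 B cell and 7 of 8 eosinophil and basophil markers. The same held for 6 of 8 T and NK cell, 6 of 9 dendritic cell and 5 of 6 CAR cell markers. The share of all genes so placed was not counted in neutrophils, and the part of all these markers in the differences was not tested.

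The remaining called pairs were single ones. No gene was called in megakaryocytes (background 0.0532%), plasma cells (0.0631%), macrophages (0.0367%), CAR cells (0.128%), T and NK cells (0.111%) or eosinophils and basophils (0.160%). With no filter on low counts, Selenom was called in megakaryocytes, Spp1 in plasma cells, and Selenom and Ckb in T and NK cells. Of all genes 100, 178 and 266 were then called there. Rnase4 in macrophages was called with a replicate block, and Selenom in T and NK cells without called doublets. Selenom in megakaryocytes had the lowest fitted value, -2.24 ± 0.91. Rnase4 in dendritic cells had 15 and 9 UMIs with vehicle and 91 and 42 with PM (log2 fold change 2.18 ± 0.36, 0.399% of genes called), and lost its call with DESeq2 and without vehicle replicate 2. In the same dendritic cell sums macrophage markers went from 33.8 and 30.1 to 78.4 and 50.8 CPM. Of these 9 markers 4 were higher in both PM mice and 2 lower or equal, among them Cd5l at 0 in all 4 mice. Monocyte markers went from 3428 and 3251 to 4397 and 4026 CPM (3 of 10 higher, 3 lower). The part of both lists was not tested. Padi2 in B cells had 8 and 33 against 98 and 52 UMIs (1.12 ± 0.29, 5.31% of genes called), or 10.9 and 9.84 against 23.9 and 19.7 CPM, and was not called with DESeq2, without called doublets, with stricter cell filters, at the lower clustering resolution or without vehicle replicate 2 or PM replicate 1. In the B cell sums monocyte markers went from 272 and 206 to 488 and 377 CPM. Of these 10 markers 2 were higher in both PM mice and 2 lower or equal, among them Cd300e at 0 in all 4 mice. Macrophage markers went from 27.3 and 36.4 to 59.3 and 59.1 CPM (6 of 9 higher, 1 lower). The share of all genes so placed was not counted in dendritic cells or B cells. The part of both lists was not tested. Fn1 in erythroid cells had 5 and 17 against 241 and 105 UMIs (3.22 ± 0.39, 0.0856% of genes called), and was not called without called doublets, with a replicate block or without PM replicate 1. In those erythroid sums the 10 monocyte markers added up to 119 and 49.3 CPM with vehicle and 267 and 212 CPM with PM, and their part in the Fn1 difference was not tested.

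The 2 highest fitted values outside the called pairs came from few UMIs. Spp1 in plasma cells had 1, 0, 35 and 11 UMIs in the 4 mice and Selenom in T and NK cells 0, 1, 22 and 16, so that the fitted fold changes drawn for them rest on the prior count and are no measure of size.

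In progenitors (HSPC) 9 genes passed the filter and all had higher values in both PM mice than in both vehicle mice, from a log2 fold change of 0.40 ± 0.18 for Tbxas1 to 1.57 ± 0.26 for Selenom, yet none was called (0.214% of 12626 genes). The share of all genes so placed was not counted in progenitors. Alternatives differed. Selenom was called there with DESeq2, with a replicate block, with no filter and without vehicle replicate 1, vehicle replicate 2 or PM replicate 2, and Fn1 with the block, without called doublets and without PM replicate 2. With no filter 5 of the 10 genes were called in progenitors, against 326 of the 18613 genes then tested. In the progenitor sums 8 of 8 B cell, 6 of 8 T and NK cell and 5 of 8 neutrophil markers were higher in both PM mice, none lower. Of 9 macrophage markers 5 were higher and 1 lower. Monocyte markers went from 2642 and 2425 to 3230 and 2977 CPM (3 of 10 higher, 2 lower or equal). The part of these markers was not tested. In macrophages, at a median depth of 972.5 UMIs, 4 of the 10 genes passed the filter and none was called. Whether their values differed from those of monocytes was not tested. There Ckb was at 274 and 217 CPM with vehicle and 162 and 298 CPM with PM (log2 fold change -0.02 ± 0.32), with overlapping groups. Capg and Tbxas1 had log2 fold changes of 0.13 ± 0.30 and 0.36 ± 0.33. Rnase4 was at 56.6 and 65.6 against 137 and 162 CPM there (1.34 ± 0.33). In CAR cells, which had 34 to 84 cells per mouse, Sparc was at 685 and 1121 CPM with vehicle and 374 and 546 CPM with PM, lower in both PM mice (log2 fold change -0.91), and not called.

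**Figure D5:**
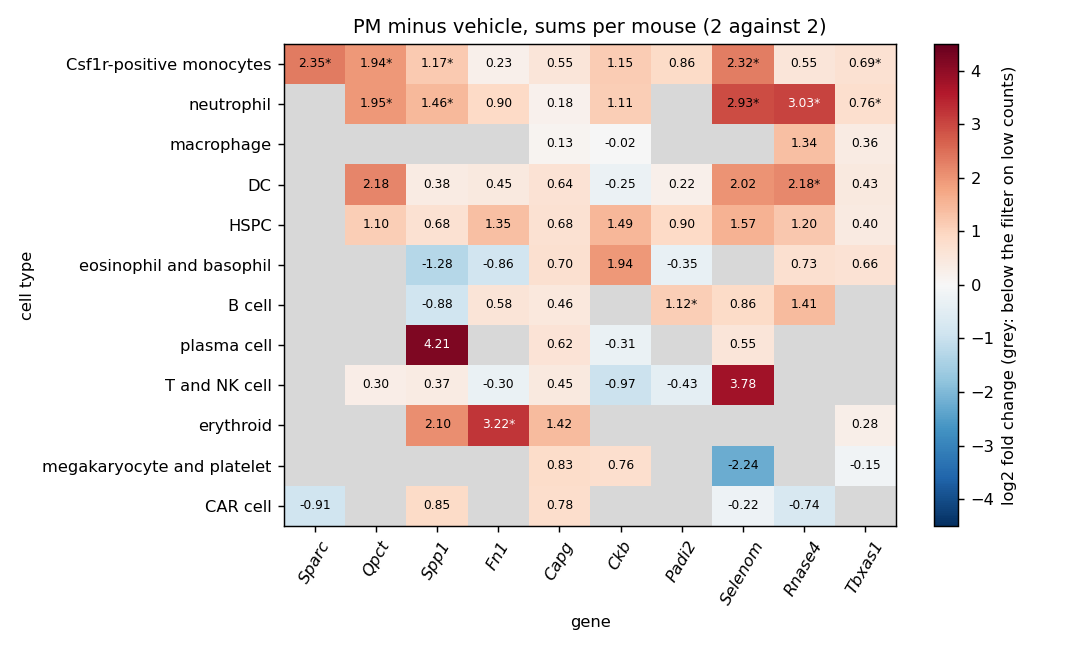
Log2 fold change of PM minus vehicle for each gene (columns) and cell type (rows) from edgeR fits on sums per mouse, red for higher and blue for lower with PM, with an asterisk for called pairs and grey where the gene was below the filter on low counts. The Csf1r-positive monocyte row is positive for all 10 genes, from 0.23 (Fn1) to 2.35 (Sparc), while CAR cells have -0.91 for Sparc and -0.74 for Rnase4. The lowest value is -2.24, for Selenom in megakaryocytes, and was not called.

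Partners of the 10 genes were examined from lists of related genes in the Csf1r-positive monocytes. The lists were chosen with earlier results of these data known, so their counts and p-values are a description. Of 16 receptors of osteopontin, fibronectin and SPARC 13 were tested and none was called (2.0% of all genes were). The integrin subunits Itga4, Itgav, Itgb5 and Itgb1 had the largest values, between -0.51 and -0.32. Itga4, part of a fibronectin receptor, was at 317 and 313 CPM with vehicle and 220 and 241 CPM with PM (log2 fold change -0.49 ± 0.11, adjusted p = 0.054 in edgeR). Among 34 other matrix and matricellular genes 11 were tested and none was called, and their median log2 fold change was -0.39. Vcan (-0.86 ± 0.41), Tgfbi (-0.57 ± 0.17), Thbs1 (-0.51 ± 0.76) and P4ha1 (-0.47 ± 0.28) had adjusted p-values of 0.12 to 0.87 in edgeR.

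In the prostanoid and leukotriene pathway, to which Tbxas1 belongs, 13 of 20 genes were tested, 1 fell and none rose (2.0% of all genes tested were called). Ptger4, a receptor of prostaglandin E2, fell from 34.3 and 32.7 CPM to 18.3 and 19.8 CPM (-0.85 ± 0.13, adjusted p = 0.0087 in edgeR). Ptgs1, the cyclooxygenase that makes the substrate of Tbxas1, was at 12.6 and 18.8 against 31.7 and 27.2 CPM (0.90 ± 0.21, adjusted p = 0.075 in edgeR). It was called with DESeq2, with no filter, with a replicate block, with every Csf1r-positive cell and without either vehicle mouse. Pla2g7 (-0.50) and Lta4h (0.39) were not called. Of 5 genes, Qpctl and chemokines known or expected to start with a glutamine once secreted, 2 were tested and neither was called. Ccl2 had 44.6 and 18.6 CPM with vehicle against 9.31 and 15.4 CPM with PM (-1.46 ± 0.64, adjusted p = 0.50 in edgeR).

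For the counts below, 1.34% of all genes tested in these monocytes were called higher. Of 18 actin capping and severing genes 15 were tested and 1 rose. Gsn (gelsolin) rose from 69.7 and 67.0 CPM to 119 and 101 CPM (0.65 ± 0.13, adjusted p = 0.028 in edgeR), while Dstn (0.30), Cfl2 (-0.13) and Cotl1 (-0.12) did not pass. Of 4 other peptidylarginine deiminases Padi4, the neutrophil and monocyte enzyme that citrullinates histones, was the one tested and rose from 16.6 and 16.9 to 28.6 and 32.0 CPM (0.81 ± 0.13, adjusted p = 0.013 in edgeR). Of 19 other selenoprotein genes 18 were tested and 1 rose, Selenow, a small protein of redox control, from 64.2 and 70.7 to 123 and 101 CPM (0.70 ± 0.14, adjusted p = 0.031 in edgeR). Msrb1 (-0.37), Txnrd1 (-0.31) and Sephs2 (-0.29) did not pass. Of 6 creatine genes 3 were tested and none was called, with Gatm at 0.12.

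On a list of ribonucleases that held the ribonuclease A family, its inhibitor and the RNase T2 genes, which are of another family, 8 of 15 genes were tested and 2 rose (1.34% of all genes tested were called higher). Ear2, an eosinophil-associated ribonuclease, rose from 73.0 and 95.0 to 191 and 248.7 CPM (1.35 ± 0.16, adjusted p = 0.0052 in edgeR), and Rnase2a from 2.47 and 2.85 to 8.10 and 6.88 CPM (1.48 ± 0.28, adjusted p = 0.023 in edgeR). Some genes of this family are close in sequence. How reads that match more than 1 of them were counted was not checked. Rnase6 (0.42) and the RNase T2 genes Rnaset2a (-0.21) and Rnaset2b (-0.15) did not pass. Of the 6 called genes of these lists, Ear2 was also called without PM replicate 1, whereas Ptger4, Gsn, Padi4, Selenow and Rnase2a were not, and the last 4 of these also lost their call with every Csf1r-positive cell. Rnase2a was named after its values were seen, so its adjusted p is no support.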

How the data were processed

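Bone marrow cells of 4 mice were counted with 10x 3' chemistry, 1 library per mouse. The authors deposited raw UMI counts per gene and cell barcode from Cell Ranger 6.0.1 (file header). The genome is given as GRCm38 in the study's methods and as GRCm39 in the submitters' processing notes, so the coordinates printed here are those of GENCODE for GRCm38 and serve to locate the genes only. No column of per-sample values was left unused (0).

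Cells were kept with 300 or more genes and no more than 20% mitochondrial UMIs. Clusters were made in scanpy 1.11.5 (2500 variable genes before members were removed, 30 components, 15 neighbours, Leiden resolution 1) and named from marker lists. Clusters that met no list were left unnamed, as was cluster 25 (268 cells), because 89.2% of its cells were called doublets. The 7497 cells of unnamed clusters entered no cell type. Doublets were the highest Scrublet scores, at the rate expected for the number of barcodes, because the automatic threshold marked almost none in 2 libraries. Apart from those in unnamed clusters, they were left out only as an alternative. UMIs were summed per mouse and cell type and tested with edgeR 4.0.16 (quasi-likelihood, TMM, R 4.3.3), with Benjamini-Hochberg adjustment over all genes tested. CPM are counts of a sum scaled to the usual common total. With 2 mice per group, an exact permutation of the mice could not reach p under 0.05. Cycling was compared with the mouse as a block. Alternatives were RLE scaling, no filter on low counts, DESeq2 1.42.0, a replicate block, each mouse left out, stricter cell filters, doublets left out, other cell sets, other cycling cuts and a clustering resolution of 0.5. The fits within cycling and not cycling cells under alternatives, the sub-clusters and the thinned shares were added after the data had been seen.

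The 10 genes and the lists were chosen with earlier results of these data known. Besides them the text names, from each list, up to 4 genes with the largest change whose mean reached 20 CPM, as well as the 3 genes most correlated with each member, of which 1 is not reported here. Limits from a count of 0 use 3 counts and cover counting error only.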

Additional observations from a re-analysis of the deposited data

Results flagged for a closer look

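In 7 cases, each 1 gene in 1 cell type, both PM mice were below both vehicle mice, while in Csf1r-positive monocytes both were above. Only pairs that passed the filter on low counts were looked at. The share of all genes so placed was not counted in those cell types, so the number of cases is a description. None of these lower values was called in the fit reported here, although Ckb in T and NK cells was called with no filter and without PM replicate 1, and Spp1 in eosinophils and basophils without vehicle replicate 2. The difference between the cell types was not tested. Sparc had a log2 fold change of -0.91 in CAR cells against 2.35 in monocytes. Rnase4 had -0.74 in CAR cells against 0.55. Spp1 had -1.28 in eosinophils and basophils against 1.17. Ckb had -0.25 in dendritic cells and -0.97 in T and NK cells against 1.15. Padi2 had -0.43 in T and NK cells and -0.35 in eosinophils and basophils against 0.86.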

How the results depend on the processing

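With 2 mice per group the calls depended on single mice. The 5 members called in Csf1r-positive monocytes became 8 with no filter on low counts, 8 with a replicate block, 3 with every Csf1r-positive cell, and 3 to 9 when a mouse was left out. The 8 called pairs in other cell types became 21 with no filter, 12 with a replicate block, and 6 to 20 when a mouse was left out. The 6 members called in cycling cells ranged from 3 to 9, and the 6 in not cycling cells from 0 to 7, when a mouse was left out. The count between cycling and not cycling cells stayed at 7 or 8 in the alternatives run. The replicate numbers share no stated origin, and same-numbered mice did not deviate together (correlation -0.062), so the block only moves counts, for all genes in monocytes from 234 to 596. For all genes in monocytes the count was 714 with no filter and 57 to 814 when a mouse was left out, and DESeq2 split its 231 calls into 128 higher and 103 lower against 157 and 77. In cycling cells 189 calls became 492 with no filter, 101 with DESeq2 and 79 to 810 leaving out a mouse. In not cycling cells 273 became 645, 139 and 2 to 384, and 617 with the block. Neutrophil calls went from 789 to 1204 with no filter and 338 to 946 leaving out a mouse. In monocytes signs turned, when a mouse was left out, for Thbs1 (-1.27 to 0.084, positive without vehicle replicate 1 and, at 0.034, without PM replicate 1), Cfl2 (-0.36 to 0.10) and Cotl1 (-0.25 to 0.0048), both positive without PM replicate 1, Gatm (-0.20 without vehicle replicate 2, up to 0.52) and Rnaset2b (-0.34 to 0.0038, positive without PM replicate 2). Fn1 was at -0.125 with every Csf1r-positive cell, which is another mixture of cells. Beside 3184 monocytes it held 935 HSPC, 725 neutrophils and 961 cells of unnamed clusters, among others. In other cell types more values changed sign over the alternatives, among them Fn1 in B cells (-1.48 to 1.93) and neutrophils (-0.060 to 1.46), Spp1 in B cells (-1.5 to 0.80) and dendritic cells (-0.41 to 0.78) and Ckb in macrophages (-0.48 to 0.37). The cause was not tested.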
